A study of Homo sapiens with 4 samples.

Results

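The VMP1 and MIR21 locus on chromosome 17 was examined in H3K27ac HiChIP data from 4 untreated colorectal cancer cell lines, SW620, SW480, HCT116 and LS513, with 1 library each. HiChIP joins DNA ends that lie close together in fixed nuclei and keeps those bound to histone H3 acetylated at lysine 27, a mark of active promoters and enhancers. The region was chr17:57600000-58150000 (hg19), and its members were all filtered loops and all same-anchor pairs with an anchor midpoint inside. These were 142 of 184225 filtered loops over the 4 libraries (40 in SW620, 19 in SW480, 32 in HCT116 and 51 in LS513) and 34 of 72787 same-anchor pairs (9 in SW620, 9 in SW480, 8 in HCT116 and 8 in LS513). Per the labels, SW620 and LS513 come from Dukes' type C tumours, SW480 from a type B tumour, and HCT116 from a colorectal carcinoma with no stage given. SW480 and SW620 are known to derive from the primary tumour and a metastasis of the same patient.

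VMP1 encodes a transmembrane protein of the endoplasmic reticulum that is needed to form autophagosomes. MIR21 encodes miR-21, a microRNA that is abundant in many carcinomas, colorectal cancer included, and lowers PDCD4, a repressor of translation. It lies at the end of VMP1 on the same strand and is made from its own primary transcript, whose promoter lies inside VMP1, and also from VMP1 transcripts that run on past the usual end. TUBD1, which encodes delta-tubulin of the centriole, and RPS6KB1, which encodes the S6 kinase downstream of mTORC1, start head to head further along the chromosome. In the RefSeq gene table the protein-coding neighbours before VMP1 are DHX40, CLTC and PTRH2, and those after RPS6KB1 are RNFT1 and HEATR6. No hg19 annotation was used here, so none of these neighbours, and no exon or intron, was assigned to an anchor.

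The start sites were placed at 57.785 Mb for VMP1, 57.919 Mb for MIR21 and 57.970 Mb for both TUBD1 and RPS6KB1 (hg19, to the nearest 1 kb), which therefore could not be separated. All 4 members had entries in the RefSeq sequence tables (GRCh38.p14, whose coordinates are not those of the hg19 anchors). The microRNA is shown because the anchor at its gene has the most loop tags of the region in SW620, HCT116 and LS513. The hairpin lies on the plus strand at chr17:59841266-59841337 (GRCh38.p14) with the mature miRNA in capitals, and in the mature sequences the capitals mark the seed, bases 2 to 8. Of 2545 mature human miRNAs in the table, 2 have this seed, and the other one, miR-590-5p, comes from chromosome 7.
MIR21 hairpin: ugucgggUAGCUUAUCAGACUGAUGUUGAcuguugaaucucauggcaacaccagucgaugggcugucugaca
hsa-miR-21-5p: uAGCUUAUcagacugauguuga
hsa-miR-590-5p: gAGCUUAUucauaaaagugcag

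In the RefSeq table VMP1 starts head to head with PTRH2, as TUBD1 does with RPS6KB1. The DNA between the start sites of each pair is shown because VMP1, TUBD1 and RPS6KB1 are the members with promoter windows; it was not placed on the hg19 anchors. The stretch between PTRH2 and VMP1 (chr17:59707431-59707653, GRCh38.p14, plus strand) holds 2 matches to CCGGAAG, a core bound by ETS factors, 1 on each strand, given in capitals. The stretch between TUBD1 and RPS6KB1 (chr17:59892944-59893120, plus strand) holds 2 matches to TGCGCATG, letters found in the NRF1 consensus, also in capitals. Both motifs were picked after the sequences had been read, were searched on both strands and did not overlap each other. Of 35116 RefSeq promoter windows of 300 bases, 10.3% hold CCGGAAG and 2.18% hold TGCGCATG. The windows of VMP1, TUBD1 and RPS6KB1 held 0 matches to GGGCGG (found in 45.0% of all windows), to CCAAT (34.6%), to the TATA box letters TATAAA (11.5%) and to the AP-1 letters TGANTCA (7.71%). A match is only a run of letters and was not tested as a site.
PTRH2 to VMP1: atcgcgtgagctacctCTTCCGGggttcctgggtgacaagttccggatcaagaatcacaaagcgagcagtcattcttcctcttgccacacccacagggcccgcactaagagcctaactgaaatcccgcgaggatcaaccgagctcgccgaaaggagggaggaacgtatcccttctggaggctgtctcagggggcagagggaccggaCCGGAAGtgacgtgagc
TUBD1 to RPS6KB1: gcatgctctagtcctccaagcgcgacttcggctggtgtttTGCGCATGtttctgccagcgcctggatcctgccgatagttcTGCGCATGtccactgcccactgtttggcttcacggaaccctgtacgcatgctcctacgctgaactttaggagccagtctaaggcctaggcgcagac

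Depth differed between the libraries. Filtered paired-end tags (PETs) numbered 152421 in SW620, 13885 in SW480, 81579 in HCT116 and 222113 in LS513, and same-anchor PETs, both ends of which fall in 1 anchor, 844521 in SW620, 130508 in SW480, 863012 in HCT116 and 1386645 in LS513. Loop counts are given below as PETs or as normalised PETs, which are PETs per 1000000 filtered PETs of the library. Same-anchor counts are likewise per 1000000 same-anchor PETs. Intervals are exact 95% intervals (Poisson for rates, conditional binomial for ratios, Clopper-Pearson for shares). They cover counting error only, since the labels name no molecular identifiers and no line had a replicate. Differences between lines were therefore not checked against replicates, and no p-value is given. With 3 PETs taken as the limit that a count of 0 allows, rather than the upper bound of the Poisson interval, 0 loop PETs allowed up to 216 normalised PETs in SW480, against 13.5 to 36.8 in the other libraries. Chromosome 17 held 10.2% of the filtered PETs in SW620, 9.61% in SW480, 10.4% in HCT116 and 9.45% in LS513. Copy number was not measured here, so more copies of the locus and more contacts per copy cannot be told apart.

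The lines had anchors at much the same places. In HCT116 and LS513, which had identical anchors here, 8 anchors covered 63.0 kb, against 14 anchors over 103 kb in SW620 and 9 over 59.9 kb in SW480. An anchor of 4.25 kb held the VMP1 start in HCT116 and LS513 (chr17:57782756-57787009). There were 3 intervals between the VMP1 start and MIR21, hence within the VMP1 gene, that had an anchor in every library. In HCT116 and LS513 they were intragenic anchor 1 (chr17:57830134-57836510), intragenic anchor 2 (chr17:57858613-57867131) and intragenic anchor 3 (chr17:57903183-57911555), the last lying 7.45 kb before the MIR21 position. The MIR21 anchor (chr17:57912358-57935762) was 23.4 kb long and so holds more than the miRNA gene. TUBD1 and RPS6KB1 shared an anchor (chr17:57968003-57972203). SW620 had wider intragenic anchors, of 22.2 and 15.4 kb for the counterparts of anchors 1 and 2. SW480 had no anchor within 1 kb of the MIR21 position. Its nearest anchors lay 1.94 kb to the left and 3.47 kb to the right.

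**Figure D1:**
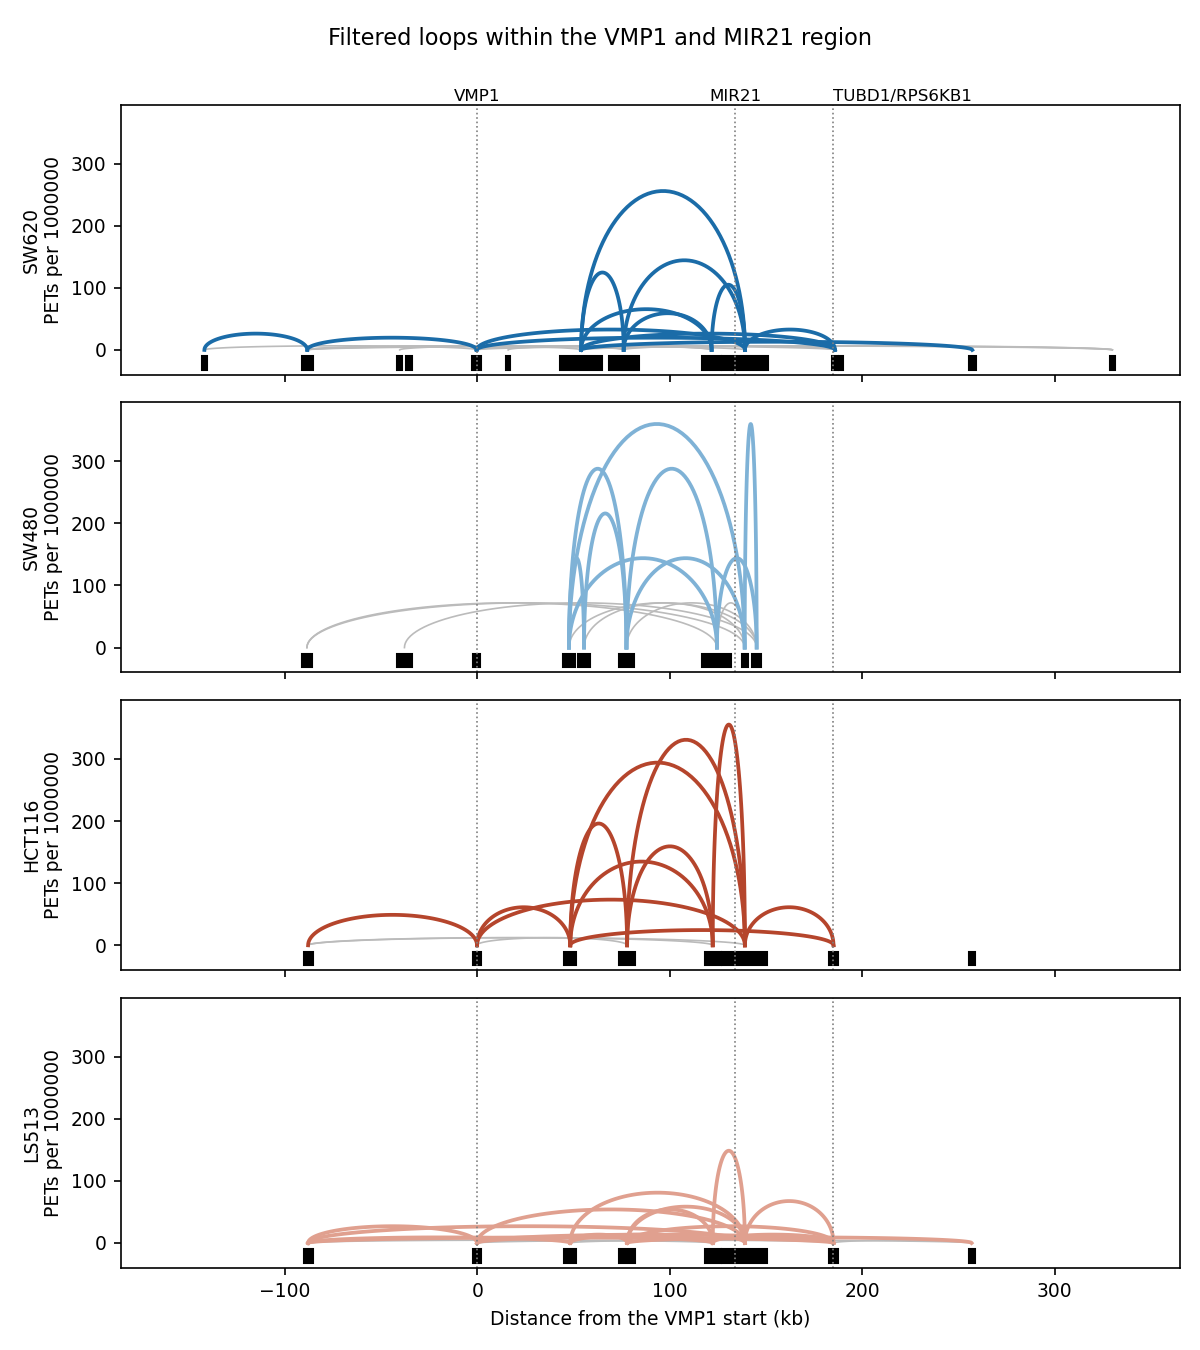
Loops with both anchor midpoints inside the region, for SW620, SW480, HCT116 and LS513 from top to bottom, against distance from the VMP1 start (kb); arc height is the loop's PETs per 1000000 filtered PETs, coloured arcs have at least 2 PETs, grey arcs 1 PET, and black boxes are anchors. In SW620 and HCT116 the tall arcs join the intragenic anchors of VMP1 with each other and with the MIR21 anchor, in SW480 one of the 2 tallest joins anchors to the right of MIR21, and in LS513 the highest arc is 149 PETs per 1000000.

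The region was loop-rich in every line. It held 169 loop PETs in SW620 (1109 normalised PETs, interval 948 to 1289), 39 in SW480 (2809, 1997 to 3840), 163 in HCT116 (1998, 1703 to 2329) and 183 in LS513 (824, 709 to 952). Among 3569 windows of the same length tiled over chromosomes 1 to 22 and X, 91.0% held fewer loop PETs in SW620, 97.8% in SW480, 96.4% in HCT116 and 87.6% in LS513. SW480 and HCT116 were thus high and LS513 was lowest. Same-anchor PETs had the same order of lines, with 780 per 1000000 in SW620, 1563 in SW480, 1244 in HCT116 and 610 in LS513. At anchors overlapping in all 4 libraries SW480 was no longer highest, with a ratio to HCT116 of 0.445 for loop PETs and 0.619 for same-anchor PETs (0.524 to 0.728).

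**Figure D2:**
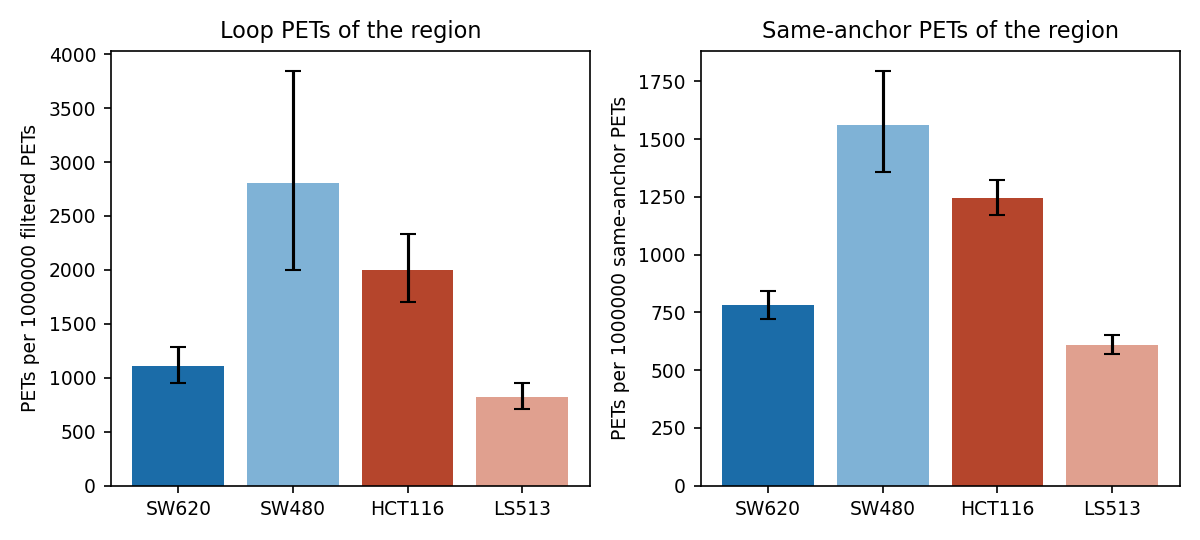
PETs of the region per 1000000 in SW620, SW480, HCT116 and LS513, for filtered loops (left) and same-anchor pairs (right); bars are the single library of each line and error bars exact Poisson 95% intervals. LS513 is lowest in both panels, at 824 and 610.

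Most loop PETs stayed within the region. Loops with both midpoints inside took 90.5% of the region's loop PETs in SW620, 92.3% in SW480, 89.0% in HCT116 and 79.2% in LS513 (interval 72.6 to 84.9). The PET-weighted median span was 67.8 kb in SW620, 47.0 kb in SW480, 61.2 kb in HCT116 and 90.7 kb in LS513, while over all loops of each library it was 67.7 kb in SW620, 52.5 kb in SW480, 66.8 kb in HCT116 and 72.5 kb in LS513. The authors' deposited FDR was under 0.01 for 11 of 40 loops in SW620, 1 of 19 in SW480, 8 of 32 in HCT116 and 14 of 51 in LS513. Over all loops the shares were 17.2% in SW620, 14.5% in SW480, 12.8% in HCT116 and 18.2% in LS513. LS513 had the longest median span and the lowest share within the region, though the interval of that share overlapped those of SW480 (79.1 to 98.4) and HCT116 (83.1 to 93.3). None of these passing loops in the 4 libraries was a loop of 1 PET.

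In SW620, HCT116 and LS513 the MIR21 anchor had the most loop PETs in the region. It took part in 90 of 169 PETs in SW620 (53.3%, interval 45.4 to 61.0), in 93 of 163 in HCT116 (57.1%, 49.1 to 64.8) and in 105 of 183 in LS513 (57.4%, 49.9 to 64.6). These shares lay within each other's intervals. By loop PETs the anchor ranked 359th of 22207 anchors with loops in SW620, 57th of 18501 in HCT116 and 647th of 20456 in LS513. Per kb of anchor it held 25.1 normalised loop PETs in SW620, 48.7 in HCT116 and 20.2 in LS513, and in each of these lines other anchors held more per kb. In HCT116 these were intragenic anchors 1 (115), 2 (83.5) and 3 (80.5) and the VMP1 promoter (51.9). In SW620 they were intragenic anchor 3 (26.1) and TUBD1/RPS6KB1 (31.1). In LS513 they included intragenic anchor 3 (30.1), the VMP1 promoter (29.6) and TUBD1/RPS6KB1 (39.7). In SW480 the anchor nearest to the right of MIR21 (chr17:57922470-57925466) had the most, with 15 of 39 PETs. With anchors up to 5 kb from MIR21 counted, 25 of 39 PETs in SW480 ended there (64.1%, interval 47.2 to 78.8).

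In SW620 and HCT116 MIR21 was joined most strongly to the intragenic anchors of VMP1. In SW620 the loop with most PETs ran from the counterpart of intragenic anchor 1 to MIR21, with 39 PETs over 85.1 kb, and 0.274% of the library's 5849 loops of like span (within a bin of factor 1.5) had as many. The counterpart of intragenic anchor 2 followed with 22 PETs to MIR21, and anchor 3 with 16. In HCT116 the leading loops were from intragenic anchor 3 to MIR21 (29 PETs), from anchor 2 to MIR21 (27 PETs) and from anchor 1 to MIR21 (24 PETs), and 0.705%, 0.374% and 0.340% of the loops of like span had as many. In LS513 the leading loop was also from anchor 3 to MIR21, with 33 PETs, and 3.35% of loops of like span had as many. It was followed by anchor 1 to MIR21 with 18 PETs and by MIR21 to TUBD1/RPS6KB1 with 15. Anchor 2 to MIR21 had 13 PETs in LS513, and the VMP1 promoter to MIR21 had 12. Of the loops of like span, 5.74% and 2.96% had as many. Loops of like span were matched by span alone, here and below, and not by anchor width. The MIR21 anchor was 23.5 kb long in SW620 and 23.4 kb in HCT116 and LS513. The median anchor of the library was 4.33 kb in SW620, 4.52 kb in HCT116 and 4.50 kb in LS513. In SW480 the leading loops had 5 PETs each, and the one from chr17:57829495-57835823 to chr17:57922470-57925466, over 91.3 kb, was the only loop of the region at FDR under 0.01 (1.48e-07).

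The intragenic anchors were also joined to each other. Between anchors 1 and 2, or their counterparts, there were 19 PETs in SW620 (125 normalised PETs), 7 in SW480 (504), 16 in HCT116 (196) and 3 in LS513 (13.5, interval 2.79 to 39.5). The LS513 interval lay below those of the other 3 libraries, whose lowest bound was 75.1. Between anchor 2 and the joined interval of anchor 3 and MIR21 there were 31 PETs in SW620 (203 normalised PETs), 7 in SW480 (504), 40 in HCT116 (490) and 25 in LS513 (113). From anchor 1 to that interval there were 49 in SW620 (321), 9 in SW480 (648), 35 in HCT116 (429) and 21 in LS513 (94.5). LS513 was lowest for each of these contacts.

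In SW620 and HCT116 the VMP1 promoter anchor had fewer loop PETs than each of intragenic anchors 1 to 3 or their counterparts. It had 17 loop PETs in SW620 (112 normalised PETs), 0 in SW480, 18 in HCT116 (221) and 28 in LS513 (126, interval 83.8 to 182). In LS513 this was near the 30 loop PETs of intragenic anchor 1 and the 38 of anchor 2. The 0 in SW480 stood beside 29 same-anchor PETs there, and at that depth the level of HCT116 would have been about the limit that a count of 0 allows. The loop from the VMP1 promoter to MIR21 spanned 139 kb and had 5 PETs in SW620 (32.8 normalised PETs, 10.7 to 76.6), 0 in SW480, 6 in HCT116 (73.5, 27.0 to 160) and 12 in LS513 (54.0, 27.9 to 94.4). These intervals overlap. All loops of like span averaged 2.20 PETs in SW620, 1.76 in HCT116 and 2.83 in LS513. As many PETs as in this loop were reached by 8.89% of them in SW620, 3.42% in HCT116 and 2.96% in LS513. Among the VMP1 promoter's other contacts, that with intragenic anchor 1 was picked out after the counts were seen. It had 5 PETs in HCT116 (61.3 normalised PETs, 19.9 to 143) and 0 in SW620, SW480 and LS513. The deposited FDR of this loop in HCT116 was 0.0449, so it was not under 0.01. By the upper bound of the Poisson interval, 0 PETs allowed 24.2 normalised PETs in SW620, 266 in SW480 and 16.6 in LS513. The bounds of SW620 and SW480 thus reach into the HCT116 interval.

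The anchor of TUBD1 and RPS6KB1 had 15 loop PETs in SW620 (98.4 normalised PETs, interval 55.1 to 162), 10 in HCT116 (123, 58.8 to 225) and 37 in LS513 (167, 117 to 230). SW480 had no anchor there. Scaled to the depth of SW480, the anchor's 15 loop PETs and 5 same-anchor PETs in SW620 would be 1.37 and 0.773 PETs, so a like level was not detectable in SW480. Its share of the region's loop PETs was 8.88% in SW620 (5.05 to 14.2), 6.13% in HCT116 (2.98 to 11.0) and 20.2% in LS513 (14.7 to 26.8). The share in LS513 thus lay above both other intervals, whereas the intervals of the rates overlapped. The rate in HCT116 was 0.736 times that in LS513 (0.326 to 1.51) at this anchor. Its loop to MIR21 had 5 PETs in SW620, 5 in HCT116 and 15 in LS513, which were 32.8 normalised PETs in SW620, 61.3 in HCT116 and 67.5 in LS513. At FDR under 0.01 this loop was left in LS513 alone, its FDR being 0.0860 in SW620 and 0.0635 in HCT116. LS513 was the deepest library, and the loop's rate did not separate HCT116 from LS513 (ratio 0.908, 0.258 to 2.63). Its loop to the VMP1 promoter had 3 PETs in SW620, 0 in HCT116 and 3 in LS513.

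HCT116 and LS513 were compared directly because their 8 anchors in the region were identical. The region's loop rate was 2.43 times higher in HCT116 (interval 1.95 to 3.01), with 163 PETs against 183 in LS513, and its same-anchor rate 2.04 times higher (1.86 to 2.23). Of 2422 windows, 9.95% were more than 2-fold higher in HCT116 by loop PETs, and 10.4% of windows were by same-anchor PETs. Scaled by all PETs on a chromosome, same-anchor PETs included, the loop ratio was 1.53 (1.23 to 1.90), and with loops at FDR under 0.01 alone it was 3.90 (3.03 to 5.03).

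The ratio was highest at intragenic anchors 1 and 2. Anchor 1 had 55 same-anchor PETs in HCT116 (63.7 per 1000000) against 10 in LS513 (7.21 per 1000000), 8.84 times as many by rate (4.46 to 19.4). Anchor 2 had 78 in HCT116 against 18 in LS513, or 6.96 times (4.13 to 12.4). Both were above the median ratio of 1.18 over 18241 identical anchors of the genome with at least 10 PETs. Intragenic anchor 3 had 352 in HCT116 against 197 in LS513, or 2.87 times (2.40 to 3.44), and by this count it ranked 132nd in HCT116 and 1614th in LS513. The MIR21 anchor had 317 in HCT116 against 312 in LS513, or 1.63 times (1.39 to 1.91). The VMP1 promoter had 96 in HCT116 against 97 in LS513, or 1.59 times (1.19 to 2.13). These anchors were thus nearer to the genome-wide median. The TUBD1/RPS6KB1 anchor had 18 in HCT116 against 13 in LS513, or 2.22 times (1.03 to 4.94), and the anchor at chr17:58040295-58043423 had 35 against 21, or 2.68 times (1.52 to 4.84). In all, 5 of 8 anchors were more than 2-fold higher in HCT116, against 21.9% of identical anchors, and 0 were more than 2-fold lower, against 9.07%. Bins of 50 kb held the same PETs regrouped, so they are not a separate observation. Of these bins, 5 of 7 were more than 2-fold higher in HCT116, against 18.8% of bins.

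The loops followed the same pattern. Of the 66 loops of the region found in HCT116 or LS513, 9 had at least 10 PETs in the 2 libraries together, and 6 of these were more than 2-fold higher in HCT116, against 14.2% of 5942 loops at identical anchors. None was more than 2-fold lower, against 23.3%. The 6 were the loops among the intragenic anchors and MIR21. From intragenic anchor 1 to anchor 2 there were 16 PETs in HCT116 against 3 in LS513, or 14.5 times by rate (4.16 to 77.8). From anchor 1 to anchor 3 there were 11 in HCT116 against 3 in LS513, or 9.98 times (2.64 to 55.7). From anchor 2 to MIR21 there were 27 in HCT116 against 13 in LS513, or 5.65 times (2.82 to 11.9). From anchor 1 to MIR21, from anchor 2 to anchor 3 and from anchor 3 to MIR21 the ratios were 3.63, 2.95 and 2.39. The 3 loops that ended at the VMP1 or TUBD1/RPS6KB1 promoter anchor had intervals that include 1. For the VMP1 promoter to MIR21 the ratio was 1.36 (0.419 to 3.92), and for MIR21 to TUBD1/RPS6KB1 it was 0.908 (0.258 to 2.63).

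**Figure D3:**
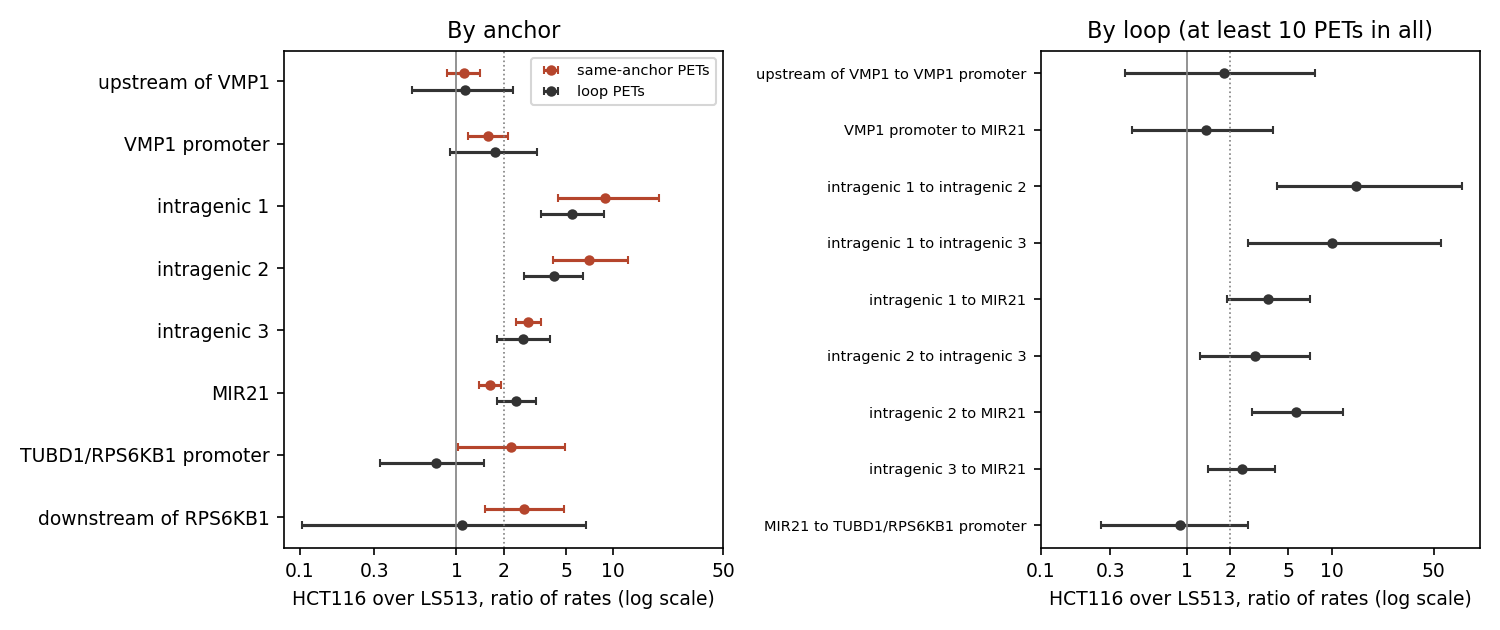
Ratio of rates, HCT116 over LS513 on a log axis, for the 8 identical anchors of the region (left, same-anchor and loop PETs) and for the 9 loops with at least 10 PETs in the 2 libraries together (right); bars are exact 95% intervals for counting error, the solid line marks 1 and the dotted line 2. The loops among the intragenic anchors and MIR21 lie at 2.39 to 14.5. The loops that end at the VMP1 or TUBD1/RPS6KB1 promoter anchor have intervals across 1.

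The make-up of the contacts separated LS513 from SW620 and HCT116. Loops with both anchors between the VMP1 start and the TUBD1/RPS6KB1 anchor, anchors at or near MIR21 included, took 68.6% of the region's loop PETs in SW620 (61.1 to 75.5), 84.6% in SW480 (69.5 to 94.1), 73.6% in HCT116 (66.2 to 80.2) and 44.8% in LS513 (37.5 to 52.3). For each PET at the VMP1 or TUBD1/RPS6KB1 promoter anchors there were 4 such PETs in SW620, 4.29 in HCT116 and 1.32 in LS513. The odds ratio, which does not depend on the scaling of the libraries, was 3.23 for HCT116 over LS513 (1.86 to 5.71) and 3.01 for SW620 over LS513 (1.74 to 5.31). For SW620 over HCT116 it was 0.934, with an interval of 0.501 to 1.74. With loops at FDR under 0.01 alone the odds ratio of HCT116 over LS513 was 7.24. This measure was chosen after the counts had been seen. In rates, the PETs of loops between these limits were 3.98 times higher in HCT116 than in LS513 (2.98 to 5.34), and those at the promoter anchors 1.23 times (0.758 to 1.95). Scaled by all PETs on a chromosome these ratios were 2.51 (1.88 to 3.37) and 0.775 (0.478 to 1.23). At the promoter anchors the interval includes 1 under either scaling. SW620 anchors are wider, and the part of anchor width in its values was not tested.

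**Figure D4:**
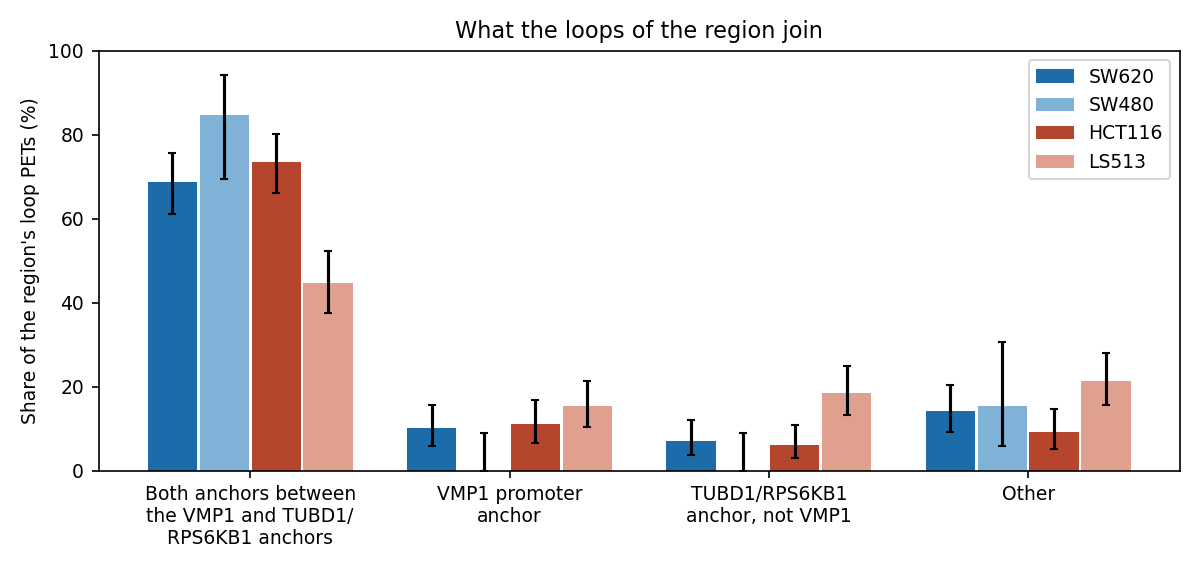
Share of the region's loop PETs by what the loops join, in SW620, SW480, HCT116 and LS513, with exact 95% binomial intervals. Loops with both anchors between the VMP1 and TUBD1/RPS6KB1 anchors take 68.6%, 84.6% and 73.6% in SW620, SW480 and HCT116, and 44.8% in LS513.

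SW620 and SW480 could be compared less closely, since their anchors differ and SW480 is shallow. The loop rate of the region in SW620 was 0.395 times that in SW480 (interval 0.277 to 0.575), and 18.6% of windows were more than 2-fold lower in SW620. The same-anchor rate was 0.499 times that in SW480 (0.426 to 0.587), and 22.4% of windows were more than 2-fold lower. At anchors overlapping in all 4 libraries the loop ratio was 1.06 (0.709 to 1.63) and the same-anchor ratio 0.891 (0.752 to 1.06), so both intervals include 1 there. With loops at FDR under 0.01 alone, which left 5 PETs in SW480, the loop ratio was 1.88. Of 7 bins of 50 kb with at least 10 same-anchor PETs, 3 were more than 2-fold lower in SW620, against 21.1% of bins. These 3 lay at or before the VMP1 start, where the VMP1 promoter anchor had 66 same-anchor PETs in SW620 against 29 in SW480, or 0.352 times by rate (0.224 to 0.565). Around intragenic anchor 1 there were 104 in SW620 and 29 in SW480, a ratio of 0.554 (0.364 to 0.868). In the joined interval of intragenic anchor 3 and MIR21 there were 324 in SW620 and 79 in SW480, a ratio of 0.634 (0.494 to 0.821). Around intragenic anchor 2 there were 66 in SW620 and 9 in SW480, a ratio of 1.13 (0.562 to 2.59). The anchor there was 15.4 kb long in SW620 and 7.81 kb in SW480. Normalised same-anchor PETs per kb of this anchor were 5.08 in SW620 and 8.83 in SW480.

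Between the other libraries, the loop rate in SW620 was 0.555 times that in HCT116 (0.445 to 0.692) and 1.35 times that in LS513 (1.09 to 1.67). Scaled by all PETs on a chromosome, the first of these ratios was 0.976 (0.782 to 1.22). SW480 was 3.41 times LS513 (2.35 to 4.84), where 18.9% of windows were more than 2-fold higher in SW480, and 1.41 times HCT116 (lower bound 0.965). By same-anchor PETs SW480 was 2.56 times LS513 (2.19 to 2.99), against 23.8% of windows. At anchors overlapping in all 4 libraries the loop ratio of SW480 to LS513 was 1.42 (0.919 to 2.14) and that to HCT116 0.445 (0.289 to 0.664). With loops at FDR under 0.01 alone they were 0.847 and 0.217. At intragenic anchor 1 the same-anchor rate in SW620 was 17.1 times that in LS513 (8.92 to 36.7), from 104 PETs on an anchor 22.2 kb long in SW620 and 10 PETs on one 6.38 kb long in LS513. Per kb of anchor these were 5.55 PETs per 1000000 in SW620 and 1.13 in LS513.

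Loops that left the region were mostly of 1 PET. There were 15 in SW620, 3 in SW480, 18 in HCT116 and 30 in LS513, of which 14 in SW620, 3 in SW480, 18 in HCT116 and 25 in LS513 had 1 PET. In SW620 the exception had 2 PETs over 1621 kb, from the counterpart of intragenic anchor 2 to chr17:59458780-59504584. In LS513 the anchor at chr17:57694758-57699488, before VMP1, had 3 PETs to chr17:58154014-58161089 and 3 to chr17:57296281-57299630, both at FDR under 0.01, and the VMP1 promoter had 2 to chr17:58154014-58161089 over 373 kb. That anchor lies just past the right end of the region, and in LS513 it was also joined to TUBD1/RPS6KB1 (3 PETs), MIR21 (2 PETs) and intragenic anchor 3 (1 PET), so part of the leaving PETs of LS513 rests on where the region ends. The anchor before VMP1, chr17:57694758-57699488 or its counterpart, had 14 loop PETs in SW620, 3 in SW480, 12 in HCT116 and 29 in LS513. Its same-anchor count was 123 in HCT116 against 178 in LS513, or 1.11 times by rate (0.875 to 1.41), the lowest same-anchor ratio of the 8 identical anchors.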

How the data were processed

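Per anchor pair, the authors deposited whole-number PET counts in 4 tables per library: pairs on 1 chromosome with same-anchor pairs, filtered pairs, pairs on different chromosomes, and the filtered pairs with a number between 0 and 1 that was read as the authors' FDR (a p-value adjusted for multiple tests), since its column has no header. The submitters' processing notes name HiC-Pro, with no version, and the build hg19 (GRCh37). How loops were called and anchors defined is not given in the sources used here. Chromosomes 1 to 22 and X were used.

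Region, members and lists were chosen with earlier results of these data known. An anchor held a start site within 1 kb. Windows of 550 kb, in phase with the region on chromosome 17, were called past 2-fold with at least 10 PETs in the 2 libraries together, a count of 0 being set to 3. The rule for named features took the 4 genes, the 5 loops with most PETs and the 3 anchors with most loop or same-anchor PETs per library, loops between promoter anchors and the 3 farthest leaving ones with at least 2 PETs. Alternative scalings, filters, anchor matches and region limits were tried; those for the contact classes and the odds ratio were chosen after seeing the data. Window calls and intervals were tested on simulated Poisson counts with known changes. These hold counting error only, so variation between libraries and differing anchors were not covered. Tables were handled with pandas 2.3.3 and numpy 2.4.6 in Python 3.11.15, intervals came from scipy 1.17.1, and plots from matplotlib 3.10.9.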

Additional observations from a re-analysis of the deposited data

Results flagged for a closer look

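Pairs on different chromosomes entered no comparison. The region had 101 such PETs in SW620, 3 in SW480, 76 in HCT116 and 95 in LS513, and in SW620, HCT116 and LS513 this was above the limit of 3 that a count of 0 allows. Per 1000000 interchromosomal PETs these were 1786 in SW620 (interval 1455 to 2171), 752 in SW480 (155 to 2198), 2482 in HCT116 (1956 to 3107) and 1426 in LS513 (1154 to 1744). Among windows with such PETs, 92.8% had fewer in SW620, 46.8% in SW480, 96.3% in HCT116 and 89.1% in LS513. The highest count for a single anchor pair was 2 PETs, in LS513, and the partners in SW620, HCT116 and LS513 lay on 20 or 21 chromosomes.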

How the results depend on the processing

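No paired analysis was possible because each line had 1 library, and for the same reason no replicate could be left out. Loop ratios of the region scaled by all PETs on a chromosome were 1.53 for HCT116 over LS513, 0.622 for SW620 over SW480 and 0.976 for SW620 over HCT116. With loops of at least 2 PETs HCT116 over LS513 was 3.04. At FDR under 0.01 it was 3.90, SW620 over SW480 turned to 1.88 and SW480 over LS513 to 0.847 (5 PETs in SW480), SW620 over HCT116 was 0.407 and SW480 over HCT116 turned to 0.217. At anchors overlapping in all 4 libraries the ratios were 3.20 for HCT116 over LS513 and 1.06 for SW620 over SW480 (turned). They were 0.445 for SW480 over HCT116 and 1.42 for SW480 over LS513. Same-anchor ratios at such anchors were 0.891 for SW620 over SW480, 0.552 for SW620 over HCT116, 1.15 for SW620 over LS513, 0.619 for SW480 over HCT116 (turned) and 1.29 for SW480 over LS513. Scaled by chromosome 17 they were 1.73 for HCT116 over LS513, 0.420 for SW620 over SW480, 1.12 for SW620 over LS513 and 1.55 for SW480 over HCT116. In a region 50 kb wider at each end they were 0.534 for SW620 over HCT116, 1.07 for SW620 over LS513, 1.07 for SW480 over HCT116 and 2.14 for SW480 over LS513. At FDR under 0.01 the MIR21 share was 62.6% in SW620, 67.2% in HCT116 and 78.0% in LS513, the VMP1 share in HCT116 4.69%, the TUBD1/RPS6KB1 share in HCT116 1.56%, and the loop from MIR21 to TUBD1/RPS6KB1 had 0 PETs in SW620 and in HCT116. With both midpoints inside, the MIR21 share in LS513 was 66.9%. With start sites up to 5 kb from an anchor, the MIR21 share in SW480 was 64.1%, against 0% within 1 kb. The odds ratio of HCT116 over LS513 at FDR under 0.01 was 7.24. With a fold of 1.5, windows higher in HCT116 than in LS513 numbered 492 and lower ones 518, against 241 and 235, and with at least 20 PETs those higher in SW480 than in HCT116 numbered 250, against 378. The cause of these shifts was not tested. The other 168 values of these results stayed within the interval, or within 1.5 times the count, of the reported value. The loop and same-anchor ratios of the region for HCT116 over LS513 stayed above 1, intervals included, under each alternative run. SW480, with 39 loop PETs in the region, limits every comparison with it.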
